A study of Mus musculus with 2 samples.

Results

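The CRTC, CREB and SIK family comprises 9 genes (Crtc1, Crtc2, Crtc3, Creb1, Crem, Atf1, Sik1, Sik2 and Sik3) of the 32285 features counted in single cells of mouse liver tumours. The members were taken by name, and each was found in the matrix of both libraries. All 9 are annotated as protein-coding. For every member, the unique molecular identifiers (UMIs, each standing for 1 captured transcript) were summed, and the share of cells with a UMI was taken, within 6 groups of cells gated by marker transcripts.

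CREB1, ATF1 and CREM are related transcription factors that bind the cAMP response element, a DNA word in the promoters of many hormone-induced and activity-induced genes. CRTC proteins are their coactivators: phosphorylated CRTC is held in the cytoplasm by 14-3-3 proteins, and dephosphorylated CRTC enters the nucleus and joins CREB on its targets. The salt-inducible kinases (SIK), kept active by LKB1 and inhibited by protein kinase A, phosphorylate CRTC, and in liver this switch is known for the control of gluconeogenic genes during fasting.

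Tumours came from livers of Crtc2-/- and Crtc2+/+ mice, with 1 library per genotype. All mice of both genotypes had received diethylnitrosamine (DEN), a liver carcinogen, by intraperitoneal injection at 25 mg per kg at 2 weeks of age. All had then been fed a diet that causes non-alcoholic steatohepatitis (NASH) between weeks 8 and 26, after which they were killed. Which part of Crtc2 the mutant allele lacks, the cells in which it is lost, the sex of the mice and the number of animals or tumours behind a library are not stated in the labels.

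Since each genotype is 1 library, nothing here was tested, and an effect of genotype cannot be told apart from that of the animal, the tumour or the library. Levels are given as CPM, the UMIs of a gene scaled to the total UMIs of the gated cells of that library, with exact 95% Poisson intervals. Ratios are Crtc2-/- over Crtc2+/+ with exact conditional 95% intervals. All intervals cover counting error only. After filters, 8901 Crtc2-/- and 9349 Crtc2+/+ cells were compared, at median depths of 6560 and 7115 UMIs. The libraries shared 29 cell barcodes, and leaving these out moved none of the 52 log2 ratios of members beyond its interval.

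The gates differed in size and in mixture between the libraries. The T cell gate (Cd3d, Cd3e and Cd3g) held 2608 Crtc2-/- and 1926 Crtc2+/+ cells, the B cell gate (Cd79a and Cd79b) 1745 and 790, and the macrophage gate (C1qa, C1qb and C1qc) 1662 and 4940. The endothelial gate (Ptprb and Stab2) held 677 Crtc2-/- and 233 Crtc2+/+ cells, the hepatocyte gate (Alb, Apoa1 and Ttr) 239 and 270, and the neutrophil gate (S100a8 and S100a9) 310 and 75. Further markers of each named type, which the gates did not use, were all present in their gate in both libraries. Their summed level was nearly equal in T gate cells (1946 CPM in Crtc2-/- and 1964 CPM in Crtc2+/+) and lower in Crtc2-/- endothelial gate cells (3408 CPM, against 5259 CPM in Crtc2+/+). Of the B gate cells, 27.2% in Crtc2-/- and 29.7% in Crtc2+/+ also passed the macrophage gate. Those cells carried 34.9 CPM of B cell markers in Crtc2-/- and 25.0 CPM in Crtc2+/+, against 2250.5 and 1945 CPM of macrophage markers, so the B gate is not made of B cells alone. Kupffer cell markers (Clec4f, Vsig4, Cd5l and Timd4) summed to 1810 CPM in Crtc2-/- and 62.0 CPM in Crtc2+/+ macrophage gate cells, so that gate does not hold the same mixture of macrophages in both libraries.

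The DNA word that CREB1, ATF1 and CREM read is TGACGTCA, and its half-site is TGACG. Since Sik1 and Crem are textbook targets of CREB, the promoters of the family itself were searched for both words on either strand, a half-site being counted also inside a full site. RefSeq windows of 6 of the 9 members were searched (Crtc1, Crtc3, Creb1, Atf1, Sik2 and Sik3, build GRCm38.p6). Crem was left out of the search, and no window was at hand for Crtc2 and Sik1, so neither textbook target was searched. In the 250 bases before the start, the half-site was found for Sik3 and Atf1, and neither word for Crtc1, Crtc3, Creb1 and Sik2. Of all 32851 such windows of the mouse table, 17.8% held the half-site and 1.55% the full site. The 2 windows with a match are shown 5′ to 3′ with the half-sites in capitals. That of Sik3 is chr9:46012570-46012819 (plus strand), with half-sites that begin 133, 116 and 57 bases before the start. That of Atf1 is chr15:100227609-100227858 (plus strand), with 1 half-site that begins 90 bases before the start.
Sik3: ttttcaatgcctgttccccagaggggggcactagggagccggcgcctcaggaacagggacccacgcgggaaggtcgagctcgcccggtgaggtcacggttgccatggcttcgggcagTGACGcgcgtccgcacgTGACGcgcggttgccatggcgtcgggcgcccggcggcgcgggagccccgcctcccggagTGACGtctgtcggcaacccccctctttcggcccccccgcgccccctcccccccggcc
Atf1: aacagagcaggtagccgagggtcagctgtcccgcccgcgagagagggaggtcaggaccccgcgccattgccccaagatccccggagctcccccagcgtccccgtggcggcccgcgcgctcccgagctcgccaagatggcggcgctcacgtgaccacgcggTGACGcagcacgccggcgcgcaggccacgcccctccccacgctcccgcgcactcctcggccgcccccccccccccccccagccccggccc
A match describes letters only, and says nothing of binding in these cells.

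With 10 CPM added to each level, none of the 9 members was past 1.5-fold in T, B, macrophage, endothelial or hepatocyte gate cells. Of all genes with at least 20 UMIs over both libraries, 4.36% were past 1.5-fold in T gate cells, 6.89% in B, 10.4% in macrophage, 12.9% in endothelial and 22.3% in hepatocyte gate cells. At such shares a count of 0 among 9 says nothing particular of the members, and 10 CPM understates the ratio of sparse genes such as Crtc2. With 1 CPM added, 2 of the 9 members were past 1.5-fold in T gate cells, and with 10 CPM in cells passing exactly 1 gate 3 were in B gate cells. In neutrophil gate cells 3 of the 7 members with enough UMIs were past it (Crtc3 higher, Sik1 and Sik3 lower in Crtc2-/-), beside 32.1% of all genes. Hepatocyte gate cells with fewer than 3 UMIs of Krt8 and Krt18 (69 in Crtc2-/- and 72 in Crtc2+/+) had 5 of 7 members higher and 1 lower, beside 26.2% and 15.7% of all genes. Their median depths were 2729 and 1940 UMIs and their mitochondrial shares 1.92% and 8.14%, and the part of these in the values was not tested. The median log2 ratio of the members was 0.02 in T gate cells and 0.01 in macrophage gate cells, and 0.03 and 0.02 over all genes. In B gate cells it was -0.14, beside 0.01 over all genes, and 1 of the 9 members (Crtc3) had a ratio above 1. The interval of the ratio excluded 1 for 4 members in T, 6 in B, 5 in macrophage, 3 in endothelial and 1 in hepatocyte gate cells. In neutrophil gate cells it excluded 1 for 3 members, which were Sik1, Sik3 and Crtc2. Crtc2 had only 5 UMIs in each library there and is not among the 7 members above. The neutrophil interval of Crtc3 included 1.

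**Figure D1:**
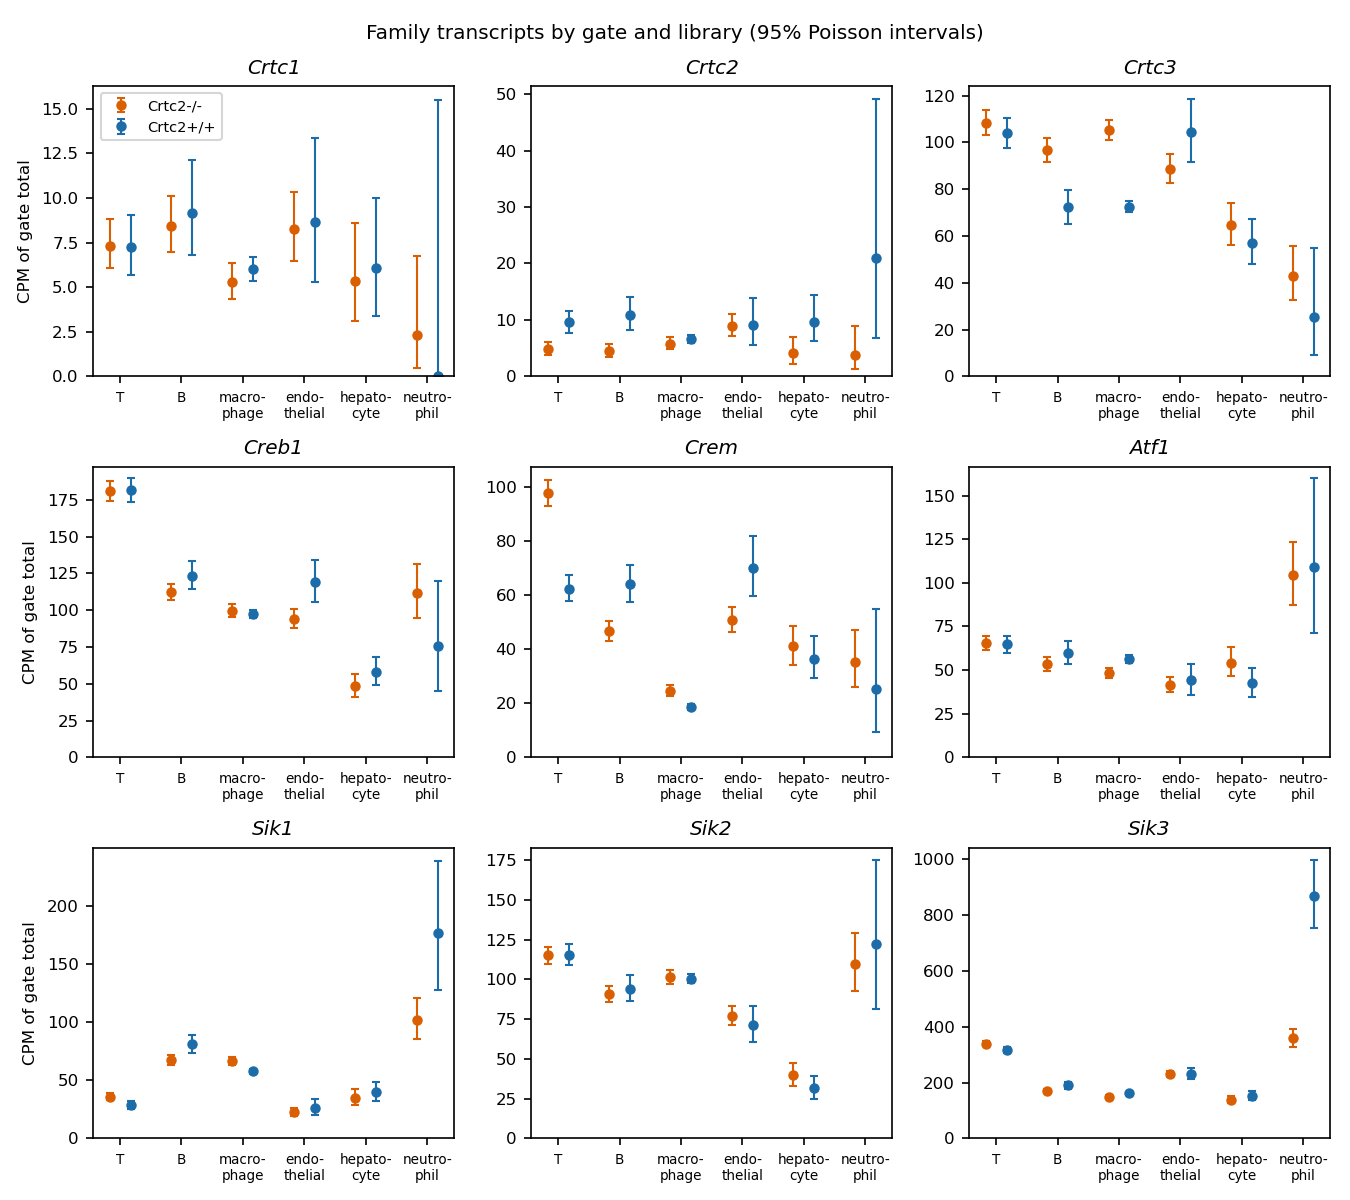
Level of each family member (CPM of the gate total, linear axis from 0) in the 6 marker gates, with Crtc2-/- in orange to the left of Crtc2+/+ in blue; points are 1 library each and bars are 95% Poisson intervals. Creb1 and Sik2 sit at nearly the same level in both libraries in T and macrophage gate cells, while Crtc2 is lower in Crtc2-/- T and B gate cells and Sik3 lower in Crtc2-/- neutrophil gate cells.

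**Figure D2:**
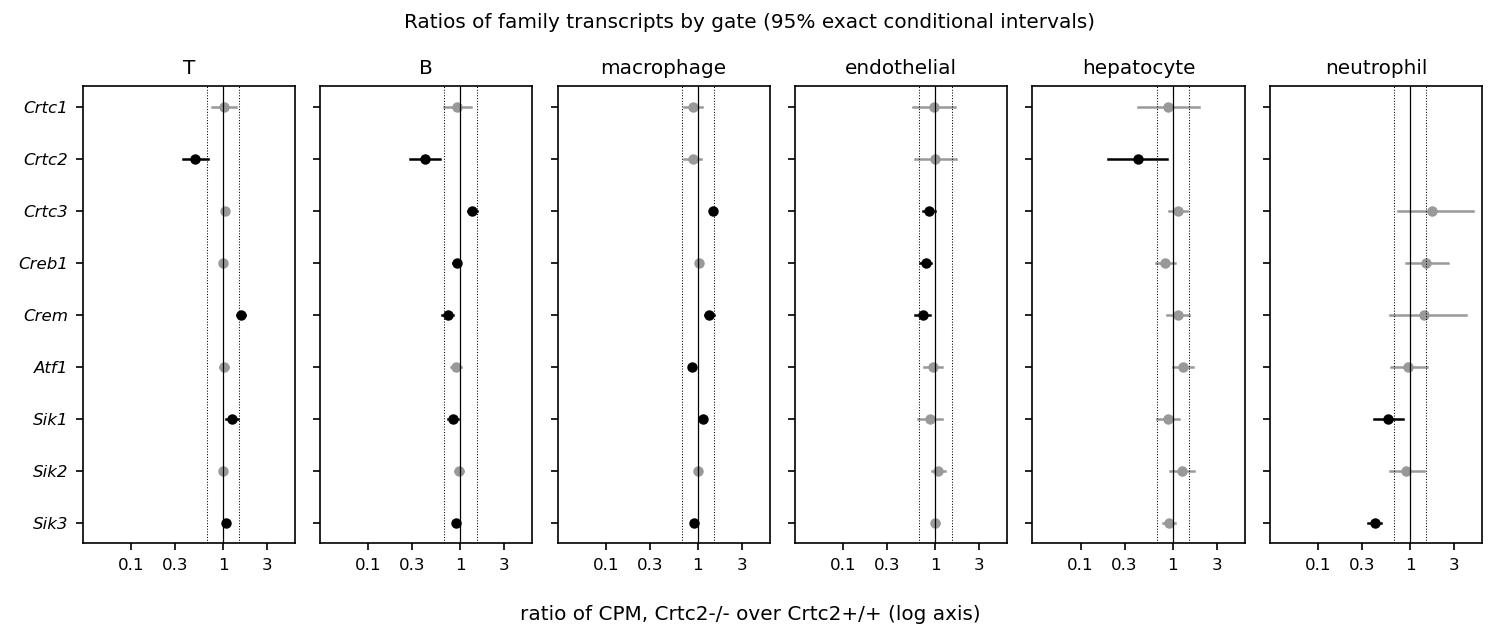
Ratio of CPM, Crtc2-/- over Crtc2+/+ (log axis), for each member in each gate, with exact conditional 95% intervals; black marks intervals that exclude 1, grey those that include it, and dotted lines mark 1.5-fold either way. Members under 20 UMIs over both libraries (Crtc1 and Crtc2 in neutrophil gate cells) are not drawn, and Crtc2 lies left of 1 in T, B and hepatocyte gate cells and close to 1 in macrophage and endothelial gate cells.

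Among the coactivators, Crtc2 (ENSMUSG00000027936, chr3:90254163-90264125, plus strand, GRCm38) is the targeted gene and the CRTC best known in liver. It was detected in both libraries, with 400 UMIs over all Crtc2-/- cells (5.43 CPM) and 615 over all Crtc2+/+ cells (7.96 CPM), a ratio of 0.683 (0.600 to 0.775). Reads of 3′ libraries gather at a transcript's end, so if the deleted part lies elsewhere these UMIs do not check the genotype labels, and no direction of Crtc2 activity is read from them.

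The remaining Crtc2 UMIs were not spread evenly over the gates. T gate cells held 4.78 CPM in Crtc2-/- (75 UMIs) and 9.55 CPM in Crtc2+/+ (99 UMIs), a ratio of 0.501 (0.366 to 0.683), and 2.72% and 4.93% of these cells had a Crtc2 UMI. B gate cells held 4.48 CPM in Crtc2-/- and 10.9 CPM in Crtc2+/+ (0.412, 0.284 to 0.600). In hepatocyte gate cells the values were 4.10 CPM in Crtc2-/- and 9.70 CPM in Crtc2+/+, from 13 and 24 UMIs (0.423, 0.198 to 0.864). At 1000 UMIs per cell the ratio was 1.08. Only 0.429% of 233 Crtc2-/- and 0.397% of 252 Crtc2+/+ cells then had a Crtc2 UMI, too few to judge the ratio. The ratios of the T and B gates were below that of the whole libraries, and those of the macrophage and endothelial gates above it. Macrophage gate cells were at 5.78 CPM in Crtc2-/- and 6.56 CPM in Crtc2+/+ (0.881, 0.711 to 1.09), and endothelial gate cells at 8.92 and 9.08 CPM (0.983, 0.602 to 1.67), both intervals including 1. Neutrophil gate cells gave only 5 UMIs in each library, 3.84 CPM in Crtc2-/- and 21.02 CPM in Crtc2+/+.

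Narrower populations gave other ratios. B gate cells with a Cd79a UMI that did not pass the macrophage gate held 3.76 CPM of Crtc2 in Crtc2-/- and 12.7 CPM in Crtc2+/+ (0.296, 0.163 to 0.532). Macrophage gate cells without a UMI of Clec4f, Cd5l or Vsig4 held 4.08 CPM in Crtc2-/- and 6.52 CPM in Crtc2+/+ (0.626, 0.438 to 0.871). Of these cells 29.7% in Crtc2-/- and 5.85% in Crtc2+/+ also passed another gate. Without those, the levels were 4.95 and 6.32 CPM (0.784, 0.526 to 1.13), an interval that includes 1. Macrophage gate cells with at least 3 UMIs of these markers held 8.02 CPM in Crtc2-/- (69 UMIs) and 8.35 CPM in Crtc2+/+ (6 UMIs), and their ratio of 0.960 has a wide interval (0.419 to 2.71). Among cells outside the 6 gates as a whole the ratio was 0.529 (0.409 to 0.685).

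Within T gate cells, those with a Cd8a or Cd8b1 UMI and no Cd4 UMI (CD8 cells) had 4.21 CPM of Crtc2 in Crtc2-/- and 9.44 CPM in Crtc2+/+ (0.446, 0.284 to 0.692). CD8 cells without a UMI of Pdcd1, the gene of the inhibitory receptor PD-1, stood at 0.405 (0.227 to 0.698). CD8 cells with one stood at 0.846, but 17 and 6 UMIs leave an interval of 0.318 to 2.62 that holds the other ratio. In CD4 cells (a Cd4 UMI and no Cd8a or Cd8b1 UMI) the ratio was 0.679 (0.286 to 1.65), and in NK cells (Ncr1 and Klrb1c, T gate not passed) 0.436 (0.115 to 1.45). No cell of either library in the T gate held more than 3 Crtc2 UMIs, so the level rests on many cells with a single UMI.

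In the order of gates for Crtc2, endothelial gate cells came first in Crtc2-/-, and their interval (7.08 to 11.1 CPM) did not meet that of macrophage gate cells in second place (4.81 to 6.89 CPM). In Crtc2+/+ all neighbours in the order overlapped, and macrophage gate cells came last. The 3 genes whose profile over the 12 points (6 gates in 2 libraries) was most like that of Crtc2, out of 10628 eligible genes, were Pank4 (Pearson r = 0.88), Nfkbil1 (0.86) and Sh3bp5l (0.84). For every other member the third most similar gene had a higher r than Pank4, the lowest being 0.93 for Crem. The 12 points share 2 libraries and differ in depth.

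**Figure D3:**
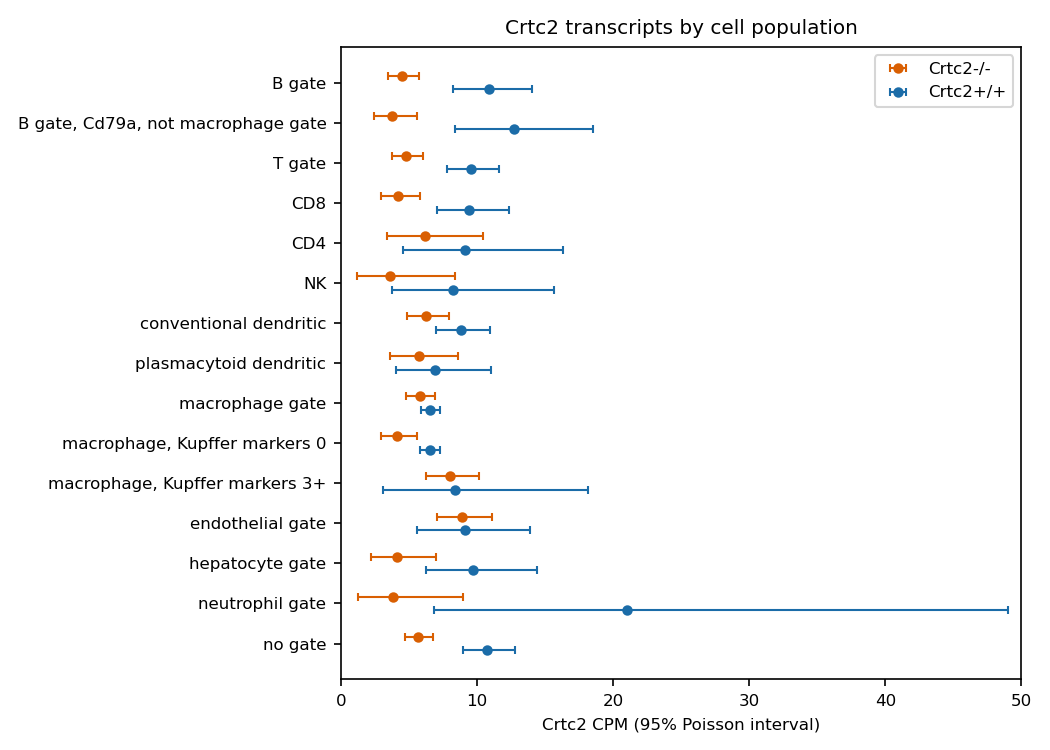
Crtc2 level (CPM, linear axis) in gated and more narrowly defined populations, with Crtc2-/- in orange above Crtc2+/+ in blue and 95% Poisson intervals. The intervals of the libraries are apart in T gate, CD8 and B gate cells and overlap in endothelial gate and Kupffer marker cells; the neutrophil interval is wide because each library held 5 UMIs.

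Crtc1 (chr8:70382355-70439579, minus strand), the coactivator best known from neurons, was as sparse as Crtc2. It stood at 7.33 CPM in Crtc2-/- and 7.24 CPM in Crtc2+/+ T gate cells (1.01, 0.751 to 1.37) and at 5.27 and 5.998 CPM in macrophage gate cells (0.878, 0.701 to 1.09). B, endothelial and hepatocyte gate cells had ratios of 0.921, 0.955 and 0.884, and all 5 intervals included 1, so no difference in Crtc1 was detectable at this depth. In neutrophil gate cells there were 3 UMIs in Crtc2-/- and 0 in Crtc2+/+, where 0 of 75 cells allow a level of up to 15.5 CPM (upper 95% limit). All neighbours in the order of gates overlapped in both libraries. The most similar profiles were those of Gopc, Trim35 and Dhx57 (r = 0.98 for each).

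Crtc3 (chr7:80586627-80688877, minus strand), a coactivator known from adipose tissue and myeloid cells, was higher in Crtc2-/- in 2 gates. Macrophage gate cells held 105 CPM in Crtc2-/- and 72.6 CPM in Crtc2+/+, a ratio of 1.45 (1.38 to 1.53). B gate cells held 96.6 CPM in Crtc2-/- and 72.3 CPM in Crtc2+/+ (1.34, 1.19 to 1.501). T gate cells, at 108 CPM in Crtc2-/- and 104 CPM in Crtc2+/+ (1.04, 0.966 to 1.13), had an interval that included 1. Endothelial gate cells were lower in Crtc2-/- (88.6 CPM, against 105 CPM in Crtc2+/+; 0.847, 0.732 to 0.982), but among those passing no other gate the log2 ratio was 0.10 in place of -0.22. Hepatocyte gate cells stood at 64.6 and 57.0 CPM (1.13, 0.911 to 1.42), and neutrophil gate cells at 43.0 CPM in Crtc2-/- and 25.2 CPM in Crtc2+/+ on 56 and 6 UMIs (1.70, 0.735 to 4.84).

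Macrophage gate cells without Kupffer markers were higher for Crtc3 in Crtc2-/-. They held 119 CPM in Crtc2-/- and 72.0 CPM in Crtc2+/+ (1.66, 1.55 to 1.77), while cells with at least 3 Kupffer marker UMIs held 78.7 and 100 CPM (0.785, 0.615 to 1.02). Of the cells without Kupffer markers 29.7% in Crtc2-/- and 5.85% in Crtc2+/+ also passed another gate, and they carried 292 and 59.7 CPM of endothelial and 205 and 32.4 CPM of hepatocyte markers. Without the cells that passed another gate, Crtc3 stood at 109 CPM in Crtc2-/- and 72.2 CPM in Crtc2+/+ (1.52, 1.39 to 1.65), with hepatocyte markers at 34.2 and 12.5 CPM. Endothelial markers were still at 240 and 42.3 CPM there, and their part in the result was not tested. In B gate cells it was found in the cells that also passed the macrophage gate, at 112 CPM in Crtc2-/- and 65.0 CPM in Crtc2+/+ (1.73, 1.48 to 2.03), and not in those with Cd79a and outside the macrophage gate, at 78.4 and 79.6 CPM (0.984, 0.825 to 1.18). In macrophage gate cells 61.9% of Crtc2-/- and 45.5% of Crtc2+/+ cells had a Crtc3 UMI, at median depths of 11192 and 8922 UMIs. After thinning every cell to 1000 UMIs the shares were 9.45% (8.08 to 11.0%) and 7.45% (6.73 to 8.22%), and these intervals overlapped. CD8 cells without Pdcd1 were also higher in Crtc2-/- (100 CPM, against 74.7 CPM in Crtc2+/+; 1.34, 1.16 to 1.55). Crtc3 overlaps the antisense gene Gm15880 on the other strand. Its most similar profiles were those of Aqr (r = 0.98), Syncrip and Orc4 (0.97 each).

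Of the transcription factors, Creb1 (chr1:64532645-64604548, plus strand), the founding member, differed little. It stood at 181 CPM in Crtc2-/- and 182 CPM in Crtc2+/+ T gate cells (0.997, 0.941 to 1.06) and at 99.7 and 97.7 CPM in macrophage gate cells (1.02, 0.970 to 1.07). Both intervals are narrow and include 1. B gate cells were slightly lower in Crtc2-/- (112 CPM, against 124 CPM in Crtc2+/+; 0.908, 0.828 to 0.996), but at 1000 UMIs per cell the log2 ratio was 0.030 in place of -0.13. Endothelial gate cells were lower as well (94.2 CPM in Crtc2-/- and 119 CPM in Crtc2+/+; 0.789, 0.688 to 0.907). Hepatocyte gate cells (0.829, 0.656 to 1.05) and neutrophil gate cells (1.48, 0.905 to 2.57) had intervals that included 1. T gate cells came first in the order for Creb1 in both libraries, apart from the B gate in second place, and hepatocyte gate cells came last, overlapping the neutrophil gate in Crtc2+/+. Arhgef1 (r = 0.97), Lsm14a (0.96) and Il2rg (0.95) had the most similar profiles, Il2rg being a cytokine receptor chain of lymphocytes.

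Atf1 (chr15:100227819-100261244, plus strand), a close relative of CREB1, was also nearly level. Ratios were 1.01 in T (65.7 CPM in Crtc2-/- and 64.7 CPM in Crtc2+/+), 0.892 in B, 0.946 in endothelial, 1.28 in hepatocyte and 0.955 in neutrophil gate cells, and all 5 intervals included 1. Macrophage gate cells were lower in Crtc2-/- (48.2 CPM, against 56.4 CPM in Crtc2+/+; 0.854, 0.794 to 0.917). Unlike Creb1, Atf1 had its highest level in neutrophil gate cells in both libraries (104 CPM in Crtc2-/- and 109 CPM in Crtc2+/+), apart from the T gate in second place. Its window of 250 bases, printed above, holds 1 half-site. Slc2a3, 2310001H17Rik and Lyst had the most similar profiles (r = 0.96 each).

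Crem encodes activators and the short repressor ICER, which cAMP itself induces from an internal promoter, and counts of 3′ reads cannot tell these forms apart. After Crtc2 it had the ratio furthest from 1 in T gate cells. These held 97.7 CPM in Crtc2-/- (92.8 to 103) and 62.4 CPM in Crtc2+/+ (57.7 to 67.4), a ratio of 1.56 (1.43 to 1.72). A Crem UMI was seen in 29.3% of Crtc2-/- and 19.9% of Crtc2+/+ T gate cells. The median depths were 4705 and 4617.5 UMIs, and at 1000 UMIs per cell the shares were 8.94% (7.87 to 10.1%) and 6.15% (5.11 to 7.31%), which do not overlap. The 5% of T gate cells with the most Crem UMIs held 44.3% of them in Crtc2-/- and 51.9% in Crtc2+/+.

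Within T gate cells, Crem was higher in Crtc2-/- in CD8 cells and in cells outside both classes, and not in CD4 cells. CD8 cells held 91.4 CPM in Crtc2-/- and 48.6 CPM in Crtc2+/+ (1.88, 1.63 to 2.17), which made Crem 1 of 9 members past 1.5-fold in CD8 cells, beside 6.3% of all genes. The T gate cells with UMIs of neither or of both (759 in Crtc2-/- and 704 in Crtc2+/+) held 105 and 64.9 CPM (1.62, 1.38 to 1.90). CD4 cells held 107 CPM in Crtc2-/- and 118 CPM in Crtc2+/+ (0.909, 0.736 to 1.13). The mixture of CD8 cells differed as well: 700 of 1490 Crtc2-/- CD8 cells and 237 of 960 Crtc2+/+ CD8 cells had a Pdcd1 UMI, and Crem was higher in these. Within CD8 cells with Pdcd1 it stood at 121 CPM in Crtc2-/- and 81.4 CPM in Crtc2+/+ (1.49, 1.204 to 1.86), and within those without at 63.6 and 38.9 CPM (1.64, 1.35 to 1.99). Both were thus higher in Crtc2-/-, by less than the pooled ratio. Kupffer cell markers moved with genotype here too (138 CPM in Crtc2-/- and 1.16 CPM in Crtc2+/+ T gate cells; 319 and 2.19 CPM in those outside both classes), and their part in the result was not tested.

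Outside T cells the direction of Crem varied. B gate cells were lower in Crtc2-/- (46.6 CPM, against 64.0 CPM in Crtc2+/+; 0.728, 0.637 to 0.832), and those with Cd79a outside the macrophage gate more so, at 69.1 CPM in Crtc2-/- and 125 CPM in Crtc2+/+ (0.554, 0.474 to 0.647). Endothelial gate cells were lower too (50.9 CPM in Crtc2-/- and 70.0 CPM in Crtc2+/+; 0.726, 0.606 to 0.874). Of the Crtc2-/- endothelial gate cells 20.5% also passed the macrophage gate, against 7.30% of Crtc2+/+ cells. At 1000 UMIs per cell the log2 ratio was 0.00. Only 3.99% (2.64 to 5.75%) of Crtc2-/- and 4.29% (2.08 to 7.75%) of Crtc2+/+ cells then had a Crem UMI, so that value is imprecise. Macrophage gate cells as a whole were higher in Crtc2-/- (24.6 CPM, against 18.5 CPM in Crtc2+/+; 1.33, 1.19 to 1.48), although neither of the 2 parts compared was higher beyond counting error. Cells without Kupffer markers stood at 20.8 and 17.9 CPM (1.16, 0.992 to 1.35), and cells with at least 3 Kupffer marker UMIs were lower in Crtc2-/-, at 30.2 CPM, against 62.6 CPM in Crtc2+/+ (0.482, 0.350 to 0.678). Hepatocyte (1.13, 0.855 to 1.49) and neutrophil gate cells (1.40, 0.596 to 4.01) had intervals that included 1.

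In the order of gates for Crem, T gate cells came first in Crtc2-/-, apart from all others. In Crtc2+/+ the endothelial, B and T gates overlapped at the top, and macrophage gate cells came last in both libraries, overlapping the neutrophil gate. Ppp1r16b, Gimap6 and Gimap1 had the most similar profiles (r = 0.93 each), the GIMAP genes being GTPases of lymphocytes. Crem overlaps the gene Gm6225 on the other strand.

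**Figure D4:**
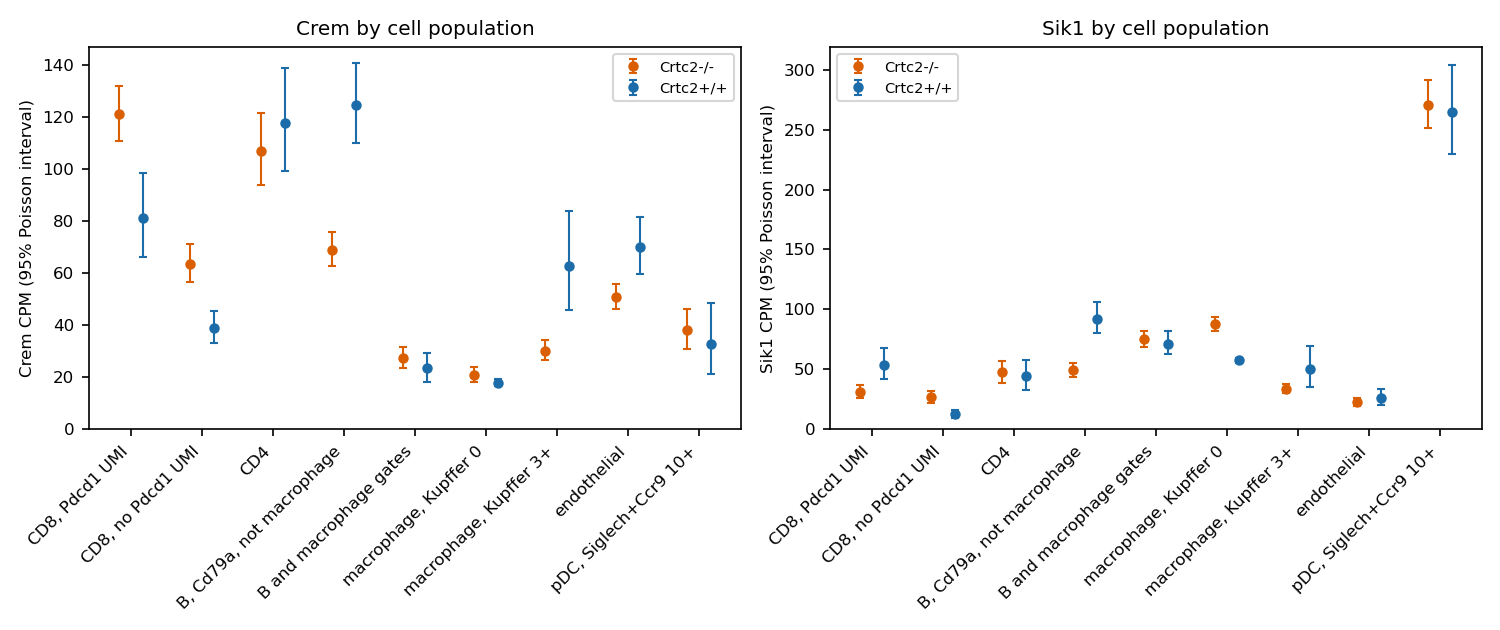
Crem (left) and Sik1 (right) levels (CPM, linear axes from 0) in populations defined more narrowly than the gates, with Crtc2-/- in orange to the left of Crtc2+/+ in blue and 95% Poisson intervals. Crem is higher in Crtc2-/- in both CD8 populations and lower in B cells and in cells with Kupffer markers; Sik1 is lower in Crtc2-/- in CD8 cells with Pdcd1 and higher in those without.

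Among the kinases, Sik1 (chr17:31844250-31855804, minus strand) is the member that CREB itself induces, and it feeds back on CRTC. T gate cells held 35.9 CPM in Crtc2-/- and 28.6 CPM in Crtc2+/+ (1.26, 1.09 to 1.45), and macrophage gate cells 66.3 and 57.8 CPM (1.15, 1.08 to 1.22). B gate cells were lower in Crtc2-/- (67.1 CPM, against 80.9 CPM in Crtc2+/+; 0.830, 0.739 to 0.932), and neutrophil gate cells lower still (102 CPM, against 177 CPM; 0.578, 0.406 to 0.838). Endothelial (0.869, 0.648 to 1.18) and hepatocyte gate cells (0.884, 0.667 to 1.17) had intervals that included 1. In the order of gates the neutrophil gate came first and the endothelial gate last in both libraries.

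The small Sik1 difference in T gate cells joined opposite ones. CD8 cells with Pdcd1 were lower in Crtc2-/-, at 30.9 CPM (131 UMIs), against 53.7 CPM in Crtc2+/+ (68 UMIs), a ratio of 0.575 (0.426 to 0.783). CD8 cells without Pdcd1 were higher, at 26.5 CPM in Crtc2-/- (121 UMIs) and 12.5 CPM in Crtc2+/+ (53 UMIs), a ratio of 2.13 (1.53 to 2.99). Crem did not share this split, being higher in Crtc2-/- in both. Of the members, 1 of 9 was past 1.5-fold in CD8 cells with Pdcd1 (Sik1 lower) beside 8.24% of all genes, and 2 of 9 in those without (Sik1 and Crem higher) beside 7.71%. Hepatocyte markers were at 18.4 and 9.48 CPM in CD8 cells with Pdcd1 and at 235 and 47.1 CPM in those without (Crtc2-/- and Crtc2+/+). Monocyte markers, which include Ly6c2, were at 184 and 780 CPM with Pdcd1 and at 525 and 1446 CPM without, and Kupffer markers at 95.5 and 0 CPM with Pdcd1 and at 38.6 and 0.942 CPM without. Plasmacytoid dendritic markers were at 34.4 and 40.3 CPM with Pdcd1 and at 117 and 24.7 CPM without. Endothelial markers were at 48.1 and 73.5 CPM with Pdcd1 and at 175 and 59.6 CPM without. The part of these markers in the Sik1 and Crem values was not tested.

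In B gate cells with Cd79a and outside the macrophage gate, Sik1 stood at 49.2 CPM in Crtc2-/- and 92.3 CPM in Crtc2+/+ (0.533, 0.444 to 0.640). In that population 3 of 9 members (Crtc2, Crem and Sik1) were past 1.5-fold, all lower in Crtc2-/-, beside 1.48% of all genes lower and 4.66% in either direction. B cell markers summed to 2001 CPM in Crtc2-/- and 2216 CPM in Crtc2+/+ cells of that population. Monocyte markers were at 151 CPM in Crtc2-/- and 29.2 CPM in Crtc2+/+, neutrophil markers at 35.6 and 0.471 CPM, Kupffer markers at 13.2 and 0.471 CPM, and NK markers at 2.04 and 15.5 CPM, and their part in these values was not tested. Macrophage gate cells without Kupffer markers were higher for Sik1 in Crtc2-/- (87.4 CPM, against 57.4 CPM in Crtc2+/+; 1.52, 1.41 to 1.64). Those with at least 3 Kupffer marker UMIs were lower (33.8 CPM, against 50.1 CPM; 0.675, 0.476 to 0.983). Among the latter, cells passing no other gate held 42.5 CPM in Crtc2-/- and 57.2 CPM in Crtc2+/+ (0.742, 0.487 to 1.17), an interval that includes 1.

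Plasmacytoid dendritic cells (Siglech and Ccr9 at 3 UMIs or more), chosen without regard to the 6 gates, held much Sik1. It stood at 227 CPM in Crtc2-/- and 110 CPM in Crtc2+/+ (2.05, 1.79 to 2.36). The Crtc2+/+ cells so chosen carried 900 CPM of macrophage markers, against 214 CPM in Crtc2-/-. With Siglech and Ccr9 at 10 UMIs or more and no other gate passed, Sik1 was 271 CPM in Crtc2-/- and 265 CPM in Crtc2+/+ (1.02, 0.873 to 1.201), a difference within counting error. In monocytes (Ly6c2, Vcan and Chil3) Sik1 had a ratio of 1.97 (1.76 to 2.22) that became 0.855 (0.688 to 1.07) without T, NK and plasmacytoid dendritic cells. Gsn (r = 0.96), Notch2 (0.96) and Map3k9 (0.94) had the profiles most like that of Sik1 over the 6 gates.

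Sik2 (chr9:50892801-51009073, minus strand), a kinase known from adipocytes and liver, did not differ beyond counting error in any gate. It stood at 115 CPM in both libraries in T gate cells (0.997, 0.926 to 1.07) and at 101 CPM in Crtc2-/- and 100 CPM in Crtc2+/+ macrophage gate cells (1.01, 0.959 to 1.06). Ratios in the other gates ran between 0.900 (neutrophil, 0.601 to 1.39) and 1.26 (hepatocyte, 0.943 to 1.69). Hepatocyte gate cells came last in its order in both libraries. Sik2 overlaps Ppp2r1b on the other strand. Cfl1 (r = 0.98), Cbl and Ppp1r18 (0.97 each) had the most similar profiles.

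Sik3 (chr9:46012820-46224194, plus strand), a broadly expressed kinase that also phosphorylates class IIa histone deacetylases, is the member with 3 half-sites in the window printed above. It differed most in neutrophil gate cells. These held 358 CPM in Crtc2-/- (467 UMIs) and 870 CPM in Crtc2+/+ (207 UMIs), a ratio of 0.412 (0.349 to 0.487). A Sik3 UMI was seen in 57.4% of Crtc2-/- and 74.7% of Crtc2+/+ neutrophil gate cells, at median depths of 2946 and 2765 UMIs, and in 32.6% (27.4 to 38.1%) and 52.0% (40.2 to 63.7%) of them at 1000 UMIs per cell. Neutrophil markers summed to 7779 CPM in Crtc2-/- and 7845 CPM in Crtc2+/+, but monocyte markers to 2268 and 286 CPM (Vcan at 0 in Crtc2+/+), and Kupffer markers to 189 and 0 CPM. With Ly6c2, Vcan and Ccr2 all at 0 (228 Crtc2-/- and 65 Crtc2+/+ cells) the levels were 502 and 945 CPM (0.531, 0.443 to 0.639), so Sik3 remained lower in Crtc2-/- while Sik1, at 151 and 185 CPM (0.818, 0.555 to 1.23), did not beyond counting error. There 1 of 7 members was past 1.5-fold, beside 27.8% of all genes.

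In the other gates Sik3 was closer to level. Ratios were 1.07 in T (339 CPM in Crtc2-/- and 317 CPM in Crtc2+/+; 1.02 to 1.12), 0.894 in B (0.830 to 0.963), 0.917 in macrophage (0.880 to 0.956), 1.002 in endothelial (0.910 to 1.10) and 0.907 in hepatocyte gate cells (0.788 to 1.04). Cells with at least 3 Kupffer marker UMIs were lower in Crtc2-/- (147 CPM, against 234 CPM in Crtc2+/+; 0.630, 0.536 to 0.745), and those of them passing no other gate were at 142 and 284 CPM (0.499, 0.411 to 0.610). In these Kupffer marker cells 2 of 9 members (Crem and Sik3) were past 1.5-fold, both lower, beside 9.63% of all genes in either direction. There were only 41 such Crtc2+/+ cells, against 537 Crtc2-/- cells. The neutrophil and T gates led the order of gates for Sik3 in both libraries, and the hepatocyte gate came last. Gramd1a (r = 0.97), Cdk11b (0.96) and Oga (0.95) had the most similar profiles.

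A list of 36 genes tied to CRTC and SIK proteins held the LKB1 complex that activates SIK, protein kinase A, the phosphatase calcineurin and 14-3-3 proteins. It also held class IIa histone deacetylases, which SIK kinases phosphorylate and which are thus not regulators of SIK here. In T gate cells 0 of 36 were higher and 1 lower past 1.5-fold in Crtc2-/-, beside 3% and 1.36% of all genes. That gene was Ppp3cc, a calcineurin catalytic subunit, at 166 CPM in Crtc2-/- and 257 CPM in Crtc2+/+ (log2 ratio -0.60). In B gate cells 2 of 35 were higher and 0 lower (all genes 3.87% and 3.02%), namely Hdac7, with a log2 ratio of 0.72, and Prkar2a, a regulatory subunit of protein kinase A, with 0.60. In macrophage gate cells 5 of 35 were higher and 0 lower (6.51% and 3.85%). Of these Hdac7, a deacetylase that SIK kinases phosphorylate, stood at 39.3 CPM in Crtc2-/- and 8.87 CPM in Crtc2+/+ (1.38), Prkar2a at 75.6 and 34.4 CPM (0.95), and Ywhaz, a 14-3-3 protein, at 230 and 130 CPM (0.78).

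The endothelial gate had 0 of 35 genes of this list past 1.5-fold in either direction, beside 6.36% of all genes higher and 6.52% lower. Hepatocyte gate cells had 4 of 35 higher and 2 lower in Crtc2-/-, beside 10.4% and 11.9% of all genes. The 14-3-3 gene Sfn was lower there (5.36 CPM in Crtc2-/- and 22.2 CPM in Crtc2+/+, log2 ratio -1.07), and Hdac7 (0.83) and Cab39l (0.78), a scaffold of the LKB1 complex, were higher. Neutrophil gate cells had 9 of 29 higher and 3 lower, beside 22.2% and 9.91% of all genes, led by Prkar2a (1.28 on 32 and 1 UMIs), Ywhab (1.09) and Ppp3r1 (1.04).

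A list of 22 transcripts known as CREB targets holds mostly immediate-early genes, which other signals also induce. In T gate cells 9 of 20 with enough UMIs were higher and 1 lower past 1.5-fold in Crtc2-/-, beside 3% and 1.36% of all genes, and the list's median log2 ratio was 0.51 beside 0.03. Nr4a2, an orphan nuclear receptor, stood at 253 CPM in Crtc2-/- and 48.5 CPM in Crtc2+/+ (log2 ratio 2.17), its relative Nr4a3 at 127 and 31.4 CPM (1.73), and the zinc finger gene Egr1 at 49.1 and 13.0 CPM (1.36). The survival gene Bcl2, named after its values were seen, was the lower one, at 750 CPM in Crtc2-/- and 1349 CPM in Crtc2+/+ (-0.84). In cells without a Pdcd1 UMI 10 of 20 were higher and 1 lower (all genes 4.25% and 1.25%), and in those with one 4 of 18 were higher and 2 lower (2.75% and 3.47%). Of 10 heat shock genes that rise when tissue is dissociated, 0 were past 1.5-fold in T gate cells, beside 3% and 1.36% of all genes. At such shares 0 of 10 says nothing particular. Their median was 0.16 beside 0.03, and Hsp90aa1 was the furthest of them, at 405 CPM in Crtc2-/- and 296 CPM in Crtc2+/+. In CD4 cells 2 of 10 were higher and 0 lower (all genes 5.7% and 4.01%), and in T gate cells without a Pdcd1 UMI 1 was higher and 0 lower. The part of dissociation in the T gate values was not tested.

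Macrophage gate cells showed the same list higher and lower in different cells. In the whole gate 7 of 20 were higher and 1 lower (6.51% and 3.85% of all genes), among them Nr4a1 at 217 CPM in Crtc2-/- and 41.9 CPM in Crtc2+/+ (log2 ratio 2.13), the cytokine gene Il10 (1.299) and the phosphatase gene Dusp1 (1.01). In cells without Kupffer markers 6 of 20 were higher and 0 lower (5.61% and 4.4%), Nr4a1 again leading at 217 and 38.8 CPM. In cells with at least 3 Kupffer marker UMIs 1 of 17 was higher and 12 lower in Crtc2-/- (5.84% and 3.79%), with a median of -0.80. Of these cells 50.3% in Crtc2-/- and 26.8% in Crtc2+/+ also passed another gate, and the part of this mixture was not tested. Il10 stood at 26.0 CPM in Crtc2-/- and 125 CPM in Crtc2+/+ there, Irs2 at 14.5 and 78.0 CPM, and Fosb at 185 and 507 CPM. In the same cells 3 of 10 heat shock genes were lower, Hspa1b at 57.3 CPM in Crtc2-/- and 173 CPM in Crtc2+/+ and Hspa1a at 58.1 and 156 CPM among them, and the part of dissociation in these values was not tested.

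Hepatocyte gate cells, where the pathway is best known, had 11 of 18 targets higher and 1 lower in Crtc2-/-, beside 10.4% and 11.9% of all genes. The immediate-early genes Fos (432 CPM in Crtc2-/- and 106 CPM in Crtc2+/+, log2 ratio 1.93), Btg2 (1.80) and Fosb (1.75) led. Of the gluconeogenic targets, both singled out after their values were seen, Pck1 stood at 80.7 CPM in Crtc2-/- and 30.3 CPM in Crtc2+/+ (1.17), and G6pc at 3.15 and 19.4 CPM (-1.16), so these 2 genes went opposite ways. Most cells of this gate (170 of 239 in Crtc2-/- and 198 of 270 in Crtc2+/+) held at least 3 UMIs of Krt8 and Krt18. In those cells 11 of 17 targets were higher and 3 lower, beside 10.4% and 13.6% of all genes. Hepatocyte markers in the whole gate summed to 12176 CPM in Crtc2-/- and 6533 CPM in Crtc2+/+, and median mitochondrial shares were 1.78% and 4.88%. The part of these, and that of dissociation, in the values was not tested.

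B gate cells had 3 of 21 targets higher and 0 lower (Egr1 0.77, Dusp1 0.74 and Il10 0.62 on the log2 scale), beside 3.87% and 3.02% of all genes. Kupffer markers were at 727 CPM in Crtc2-/- and 52.2 CPM in Crtc2+/+ B gate cells (Timd4 at 0 in Crtc2+/+), and their part was not tested. Endothelial gate cells had 2 of 18 higher and 3 lower, beside 6.36% and 6.52% of all genes, with Egr1 higher (290 CPM in Crtc2-/- and 120 CPM in Crtc2+/+) and Pde4d (-0.81) and Il10 (-0.73) lower. Neutrophil gate cells had 2 of 15 higher and 8 lower (22.2% and 9.91% of all genes). The phosphodiesterase gene Pde4d (2.19) and Bcl2 (1.90) were the higher ones, each on 5 or fewer UMIs in Crtc2+/+, and Fosb stood at 70.6 CPM in Crtc2-/- and 198 CPM in Crtc2+/+ (-1.36).

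**Figure D5:**
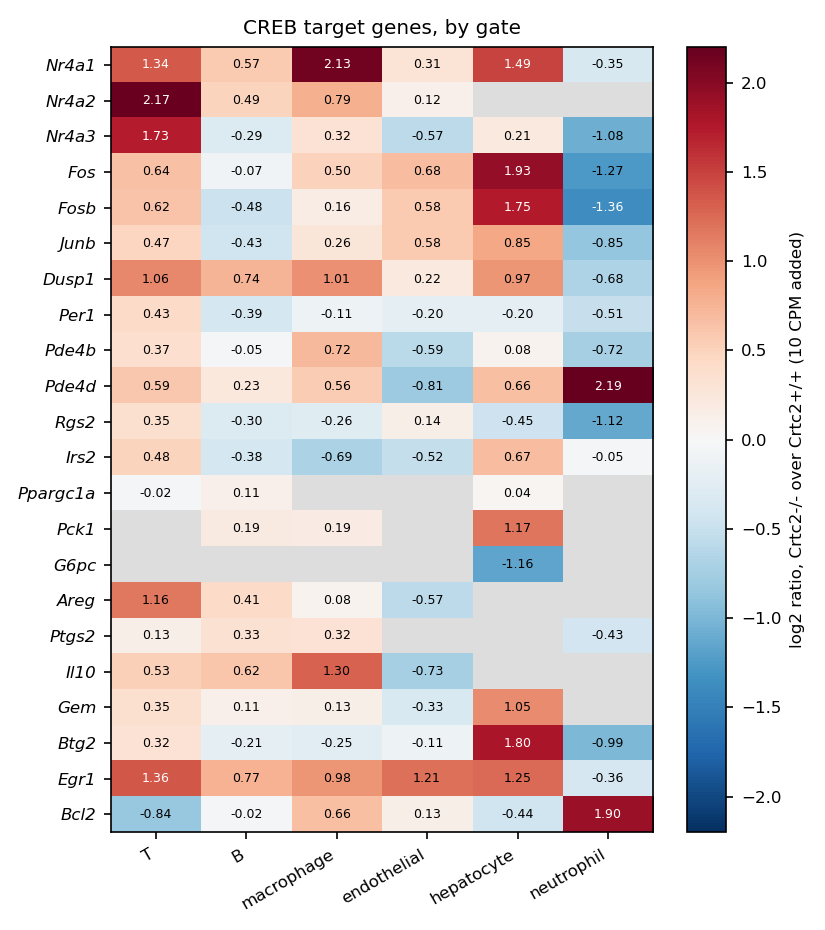
Log2 ratio, Crtc2-/- over Crtc2+/+ with 10 CPM added, of the 22 CREB target genes (rows) in the 6 gates (columns); red is higher and blue lower in Crtc2-/-, and grey marks genes under 20 UMIs. Most targets are red in T and hepatocyte gate cells, led by Nr4a2 at 2.17 in T gate cells, and most are blue in neutrophil gate cells.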

How the data were processed

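Single-cell RNA sequencing had been done on liver tumours of Crtc2-/- and Crtc2+/+ mice, 1 library each, with 10x Genomics 3′ chemistry, per the labels' protocols, which name a v2 kit. What the authors deposited were matrices of unnormalized UMI counts, which Cell Ranger 7.1.0 had written, per the file headers. The genome build was mm10 and Seurat was also used, per the submitters' processing notes. The gene annotation, the setting for intronic reads and the use of Seurat are not stated in the labels, and gene models span 9.96 kb (Crtc2) to 211 kb (Sik3), so intronic counting could weigh on members unequally. The lowest depth was 501 UMIs in Crtc2-/- and 502 in Crtc2+/+, so empty droplets could not be read.

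Barcodes (9242 in Crtc2-/- and 9707 in Crtc2+/+, with 78040008 and 81487425 UMIs) were kept with at least 500 UMIs, 250 genes and at most 20% mitochondrial UMIs. Scrublet (scanpy 1.11.5) called 273 (2.98%) and 263 (2.74%) doublets against expected rates of 7.34% and 7.69%. They were removed, and missed doublets remain. Cells passed a gate at 2 UMIs summed over its markers for T and B, 3 for endothelial and 20 for macrophage, hepatocyte and neutrophil gates, and could pass several. UMIs were summed per library and gate and given as CPM. Shares of cells were also taken after thinning each cell to 1000 UMIs, which left out 1 Crtc2-/- and 6 Crtc2+/+ cells of the T gate, 6 and 18 of the hepatocyte gate and 0 and 1 of the B gate. No cell type here is known to lack these genes, so the share due to free RNA could not be read. Log2 ratios were taken after adding 10 CPM, over genes with at least 20 UMIs in both libraries together, and a gene was counted beyond 1.5-fold either way. No test was possible. The direction of the log2 ratio, the coverage of the interval and the thinning step were checked on simulated counts. Gating, summing and the 1.5-fold call were not.

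Gene coordinates came from GENCODE release M21 (GRCm38), matched by identifier for 32158 of 32285 features, and promoter sequences from RefSeq. The named genes were all 9 members, up to 3 genes of each list with the largest absolute log2 ratio in a gate, and for each member the 3 genes with the highest Pearson r over log2(CPM + 10) in 12 points, among genes with at least 100 UMIs and 20 CPM in a point. The members and gene lists were chosen with earlier results of these data known. Software was pandas 2.3.3, anndata 0.12.19, scipy 1.17.1, numpy 2.4.6 and matplotlib 3.10.9 under Python 3.11.15.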

Additional observations from a re-analysis of the deposited data

Results flagged for a closer look

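For 4 members the ratio, Crtc2-/- over Crtc2+/+, lay on opposite sides of 1 in 2 gates with both intervals apart from 1. With 1 library per genotype these differences between gates were not tested.

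Crtc3 had a ratio of 1.45 in macrophage gate cells and 0.847 in endothelial gate cells, where cells passing no other gate went the other way. Crem had a ratio of 1.56 in T gate cells and 0.726 in endothelial gate cells. Sik1 had a ratio of 1.26 in T gate cells and 0.578 in neutrophil gate cells. The former joined 0.575 in CD8 cells with Pdcd1 and 2.13 in those without. In neutrophil gate cells with Ly6c2, Vcan and Ccr2 at 0 the Sik1 ratio was 0.818 (0.555 to 1.23), an interval that includes 1. Sik3 had a ratio of 1.07 in T gate cells and 0.412 in neutrophil gate cells, which numbered 310 in Crtc2-/- and 75 in Crtc2+/+.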

How the results depend on the processing

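Of 468 values of the 52 member log2 ratios under 9 alternatives, 420 lay within the interval of the reported value, 45 outside it with the same sign or with an interval that included 0, and 3 had the opposite sign. At 1000 UMIs per cell Creb1 in B gate cells was at 0.030 (reported -0.13) and Crtc2 in hepatocyte gate cells at 0.033 (reported -0.48), a ratio of 1.08 in place of 0.423. The latter rested on a Crtc2 UMI in 0.429% of 233 Crtc2-/- and 0.397% of 252 Crtc2+/+ cells. The Crtc2 ratio in neutrophil gate cells was 0 at that depth. Among cells passing exactly 1 gate Crtc3 in endothelial gate cells was at 0.10 (reported -0.22) and the Crtc2 ratio in B gate cells was 0.255 in place of 0.412. Members beyond 1.5-fold in T gate cells, 0 as reported, were 1 with all barcodes, with called doublets kept, in cells passing exactly 1 gate and at gate thresholds times 2, and 2 with 1 CPM added in place of 10. In B gate cells (0 as reported) they were 3 in cells passing exactly 1 gate and at gate thresholds times 2, and 1 as per-cell means, at 1000 UMIs or with 1 CPM. In hepatocyte gate cells (0 as reported) they were 1 as per-cell means, at 1000 UMIs or with 1 CPM. In neutrophil gate cells (3 as reported) they were 1 as per-cell means and at 1000 UMIs. Genes beyond 1.5-fold numbered 604 in T gate cells (404 to 2032), 912 in B (604 to 2421), 1531 in macrophage (1438 to 3497), 1629 in endothelial (1256 to 3294), 2753 in hepatocyte (1518 to 4519) and 1957 in neutrophil gate cells (802 to 3377). The cause of these shifts was not tested. Alternatives on shared barcodes and narrower populations were chosen after seeing the data. No paired analysis was possible because each genotype had 1 library, so no replicate could be left out either. Depth limits Crtc1 and Crtc2 most.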

Other observations

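Several populations chosen by markers other than those of the 6 gates also carried the family. In NK cells (239 in Crtc2-/- and 210 in Crtc2+/+) all 9 members had intervals that included 1, Sik3 standing at 330 CPM in Crtc2-/- and 360 CPM in Crtc2+/+ and Creb1 at 219 and 194 CPM. In cells chosen by the conventional dendritic markers Flt3, Xcr1, Clec9a and Cd209a (735 in Crtc2-/- and 711 in Crtc2+/+), Crem was higher in Crtc2-/-. It stood at 27.9 CPM, against 19.9 CPM in Crtc2+/+ (1.40, 1.16 to 1.69). Sik1 was lower, at 49.7 CPM against 64.3 CPM (0.773, 0.686 to 0.871), as was Sik3, at 156 CPM against 189 CPM (0.826, 0.772 to 0.885). These cells could also pass the 6 gates. They carried 910 CPM of macrophage markers in Crtc2-/- and 1127 CPM in Crtc2+/+, against 962 and 601 CPM of the dendritic markers that chose them. Kupffer markers were at 743 CPM in Crtc2-/- and 68.4 CPM in Crtc2+/+, and the part of this mixture was not tested.

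In plasmacytoid dendritic cells Crtc1 stood at 17.2 CPM in Crtc2-/- and 6.48 CPM in Crtc2+/+ (2.65, 1.52 to 4.89). In the stricter population (270 Crtc2-/- and 80 Crtc2+/+ cells) it stood at 20.3 and 10.5 CPM (1.93, 0.911 to 4.69), an interval that includes 1.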
